A study of Mus musculus with 12 samples.

Results

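The genes described are the nuclear-encoded subunits of the mitochondrial respiratory chain and ATP synthase, measured in whole mouse lung. They were chosen by symbol: names beginning with Ndufa, Ndufb, Ndufc, Ndufs or Ndufv (complex I), Sdha to Sdhd (complex II), Uqcr (complex III), Cox4 to Cox8 (complex IV) or Atp5 (complex V), leaving out -ps pseudogenes and the Ndufaf assembly factors. Of the 22180 genes with a probe of their own, 83 qualified: 34 in complex I, 8 in complex II, 7 in complex III, 17 in complex IV and 17 in complex V. Genes were placed in a complex by symbol alone, Ndufa4 and its paralog Ndufa4l2 thus in complex I, whatever complex their proteins belong to. Of these 83, 79 are counted as subunits, and 4, Sdhaf1 to Sdhaf4, are assembly factors of complex II caught by the prefix. Cox6c, Ndufb2, Ndufb4, Ndufb4b, Ndufb4c, Ndufs6, Ndufs6b and Uqcr10 were seen by probes shared between several symbols and are not counted.

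All 12 mice were females 10 weeks old, and the lung RNA of each was hybridised to its own one-colour Affymetrix array. The 4 groups of 3 mice were Zmpste24-/- ventilated, wild type ventilated, Zmpste24-/- baseline and wild type baseline. Zmpste24 is the zinc metalloprotease that cuts farnesylated prelamin A, the precursor of the nuclear envelope protein lamin A. Ventilated mice were on a ventilator for 2.5 hours at an inspiratory pressure of 15 cmH2O, with no end-expiratory pressure, at 100 breaths per minute, breathing gas with an oxygen fraction of 0.21. Baseline mice were intact, so ventilation and everything done to put a mouse on the ventilator cannot be told apart.

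Complexes I to IV pass electrons from NADH and succinate to oxygen and, at complexes I, III and IV, pump protons across the inner mitochondrial membrane. ATP synthase, complex V, lets the protons flow back and makes ATP. Most subunits are encoded in the nucleus and imported, while a few catalytic ones are encoded in mitochondrial DNA. Complex IV has isoforms restricted to muscle, testis or lung. In the lung, Cox4i2 is the known lung isoform of subunit 4 and takes part in oxygen sensing by pulmonary vessels in mice.

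All values are the deposited log2 intensities, 1 probe per gene, so that a difference of 1 is a doubling. Array medians lay between 5.345 and 5.423. Zmpste24 itself read 5.01, 5.73 and 5.43 in ventilated Zmpste24-/- lungs, 8.50, 9.28 and 8.91 in ventilated wild type lungs, 5.91, 5.31 and 5.44 in baseline Zmpste24-/- lungs and 9.0, 9.02 and 8.50 in baseline wild type lungs. Every knockout array was thus below every wild type array. Lung markers were high in all 12 arrays: Sftpc, the type 2 cell surfactant protein, read at least 13.02 and Scgb1a1, the club cell secretory protein, at least 13.12. Liver transcripts separated the baseline groups: Mup20 read 3.23, 3.12 and 2.88 in baseline Zmpste24-/- lungs, against 6.20, 10.05 and 6.44 in baseline wild type lungs, and Cyp4a14 read 3.62, 3.90 and 3.47 in baseline Zmpste24-/- lungs, against 4.46, 7.43 and 4.82 in baseline wild type lungs. Wild type baseline array 2 was the highest, and the part of liver RNA in the results was not tested. Zmpste24-/- baseline array 1 had the most adipocyte RNA of its group, with Plin1, the lipid droplet coat protein, at 7.04 against 5.40 and 5.96. Counts without each of these arrays are given where they changed.

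Most members were well expressed: 76 of 83 had a mean above 5.39, the mean of the array medians. The 7 below it were Ndufs5, Sdhaf3, Sdhaf4, Cox7b2, Cox8b, Cox8c and Atp5j2. The median standard deviation within a group was 0.125 for the members and 0.129 for all genes. Differences were tested with limma across all genes, and a gene is said to be called when its Benjamini-Hochberg adjusted p was under 0.05. Differences are given with their standard error (SE) from that fit, n = 3 arrays per group.

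In intact lungs, 8 of the 83 genes were higher in Zmpste24-/- than in wild type mice and 0 were lower. Among all genes, 2.2% were called higher and 4.11% lower in this comparison, 6.31% in all, against 9.64% and 0 of the members. At an unadjusted p under 0.05 in the same limma fit, 30 members were higher and 1 was lower, or 36.1% higher, where 8.58% of all genes were higher and 12.3% lower. The median difference of the members was 0.12, beside -0.01 over all genes, and 62 of the 83 lay above 0. The arrays of both groups did not overlap for 26 members that were higher and 1 that was lower, where the shares over all genes were 9.67% and 14.3%. The called members were the complex I subunits Ndufa6, Ndufa12 and Ndufv1, the complex IV subunits Cox4i1, Cox7a2 and Cox7b, and the ATP synthase subunits Atp5md and Atp5k.

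**Figure D1:**
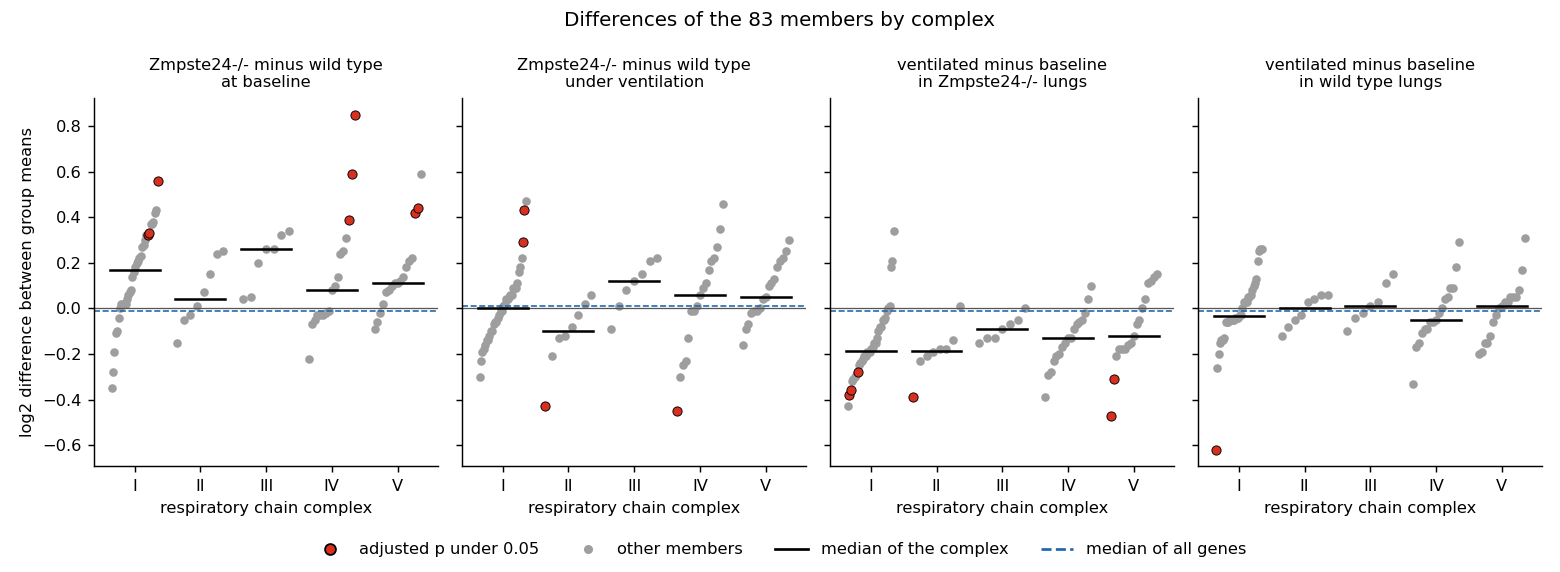
Log2 difference between group means (y axis) for each of the 83 members, in 4 comparisons (panels), by complex (x axis). Each point is 1 gene, red where the adjusted p was under 0.05. Black bars are the median of each complex and the dashed blue line is the median of all genes. In the first panel the medians of all 5 complexes are above 0, and in the third all 5 are below 0. Both of these panels use the same Zmpste24-/- baseline arrays, so they are not independent.

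In complex I at baseline, 3 of 34 members were called higher and 0 lower, and the median difference was 0.17. Ndufa6, a small LYR-motif subunit that docks the mitochondrial acyl carrier protein onto the complex, read 8.30, 8.40 and 8.38 in baseline Zmpste24-/- lungs, against 7.80, 7.76 and 7.86 in baseline wild type lungs. All 3 knockout values lay clear of the wild type values, a difference of 0.56 ± 0.08 or 1.47-fold (limma adjusted p = 0.00224). Ndufa12, an accessory subunit of the arm that takes up NADH, read 8.45, 8.26 and 8.33 in baseline Zmpste24-/- lungs, against 7.92, 8.15 and 7.98 in baseline wild type lungs. It was higher by 0.33 ± 0.09 (adjusted p = 0.0387), and its second probe gave 0.35 with an adjusted p of 0.134. Ndufv1, the core subunit that binds NADH and the flavin, read 8.60, 8.41 and 8.39 in baseline Zmpste24-/- lungs, against 8.21, 8.0 and 8.22 in baseline wild type lungs. That is 0.32 ± 0.09 (adjusted p = 0.0445), again without overlap.

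The other core subunits of complex I that were measured did not pass. The groupings by role within complexes I, II, IV and V were made after the values had been seen. Of 6 core members, Ndufv1 alone was called, and the median of the 6 was 0.14. Ndufs8, which carries iron-sulfur clusters, differed by 0.32 ± 0.13 (adjusted p = 0.167), and Ndufs1, the largest core subunit, by -0.19 ± 0.10 (adjusted p = 0.307). Among the 27 members counted as accessory, Ndufa4 included, 23 lay above 0, the median was 0.18, and 2 were called. Ndufb10 came near the threshold at 0.28 ± 0.08 (adjusted p = 0.0698). Outside both sets, Ndufa4l2, a hypoxia-induced paralog of Ndufa4, had the lowest difference of the complex, -0.35 ± 0.14 (adjusted p = 0.175).

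Complexes II and III had 0 called members at baseline in limma, with 2 of 8 and 5 of 7 members higher at an unadjusted p under 0.05 and 0 lower. Both of those in complex II were assembly factors, and the 4 subunits of succinate dehydrogenase itself had a median difference of 0.04. Sdha, its flavoprotein, read 10.15, 10.02 and 9.96 in baseline Zmpste24-/- lungs, against 10.08, 10.02 and 10.01 in baseline wild type lungs, with overlapping arrays (0.01 ± 0.08). Sdhb, its iron-sulfur subunit, differed by 0.15 ± 0.09 (adjusted p = 0.395). In complex III all 7 members lay above 0, with a median of 0.26. Uqcrfs1, the Rieske iron-sulfur protein, read 6.56, 6.32 and 6.32 in baseline Zmpste24-/- lungs, against 6.19, 5.91 and 6.13 in baseline wild type lungs, which is 0.32 ± 0.09 (adjusted p = 0.0613). Uqcrc1, a core protein, differed by 0.34 ± 0.11 (adjusted p = 0.0771), whereas its partner Uqcrc2 differed by 0.04 ± 0.08 (adjusted p = 0.829).

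In complex IV, the isoforms are given by where they are known to be used. The 10 subunits found in most tissues, counted with the supercomplex factor Cox7a2l, had a median difference of 0.25, and all 3 calls of the complex were among them. The 3 muscle isoforms had a median of -0.02 and the 4 other tissue-restricted isoforms one of -0.04. Cox4i1, the common isoform of subunit 4, read 9.11, 8.81 and 8.90 in baseline Zmpste24-/- lungs, against 8.28, 8.22 and 8.56 in baseline wild type lungs. Every knockout array was above every wild type array, by 0.59 ± 0.12 or 1.5-fold (adjusted p = 0.0141). Cox4i2, the lung isoform of the same subunit, differed by -0.05 ± 0.11 (adjusted p = 0.867).

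Of the small subunits of complex IV, Cox7b read 7.61, 7.44 and 7.49 in baseline Zmpste24-/- lungs, against 6.78, 7.07 and 6.15 in baseline wild type lungs. It had the largest difference of all members in this comparison, 0.85 ± 0.19 (adjusted p = 0.0184), and wild type array 3 was the low one. A second Cox7b probe, with a mean of 5.05, differed by 0.01 ± 0.14, so the probes of this gene disagree. Cox7a2, the isoform of subunit 7a found outside muscle, read 8.67, 8.40 and 8.59 in baseline Zmpste24-/- lungs, against 8.16, 8.06 and 8.25 in baseline wild type lungs, a difference of 0.39 ± 0.09 (adjusted p = 0.0245). Cox6b1, which faces cytochrome c, came near the threshold at 0.31 ± 0.10 (adjusted p = 0.0696). Cox5a and Cox7c, both found in every tissue, differed by 0.08 ± 0.08 and -0.01 ± 0.09.

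In ATP synthase at baseline, both calls fell among the 5 small membrane subunits outside the c ring, whose median difference was 0.42. Atp5md, also called DAPIT or Usmg5, which helps ATP synthase dimers hold together, read 10.58, 10.36 and 10.38 in baseline Zmpste24-/- lungs, against 10.00, 10.07 and 9.94 in baseline wild type lungs. The arrays did not overlap, and the difference was 0.44 ± 0.09 (adjusted p = 0.0141). Atp5k, subunit e of the dimer contact, read 9.0, 8.74 and 8.86 in baseline Zmpste24-/- lungs, against 8.51, 8.23 and 8.62 in baseline wild type lungs, which is 0.42 ± 0.11 (adjusted p = 0.0466). Atp5l, subunit g, had the largest difference of the complex, 0.59 ± 0.22, with an adjusted p of 0.14. It read 9.09, 8.71 and 8.88 in baseline Zmpste24-/- lungs, against 8.76, 8.50 and 7.67 in baseline wild type lungs, where array 3 was the low one, as for Cox7b.

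The 5 members of the F1 head and central stalk had a median difference of 0.10 and 0 calls, with 0 of them passing at an unadjusted p under 0.05 in limma. Atp5b, the catalytic beta subunit, read 11.16, 10.86 and 10.91 in baseline Zmpste24-/- lungs, against 10.90, 10.87 and 10.85 in baseline wild type lungs. These values overlap, and the difference was 0.10 ± 0.09. Atp5e, the epsilon subunit, was read by 2 probes that disagree: 0.18 ± 0.08 (adjusted p = 0.244) for the one used here and 0.48 ± 0.09 (adjusted p = 0.00991) for the other. The 2 probes of Atp5h, a stalk subunit, differed in sign, at 0.21 and -0.46, neither of them called. Those of Atp5d, the delta subunit, also disagree: 0.07 ± 0.10 for the one used here and 1.11 ± 0.37 (adjusted p = 0.101) for the other.

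**Figure D2:**
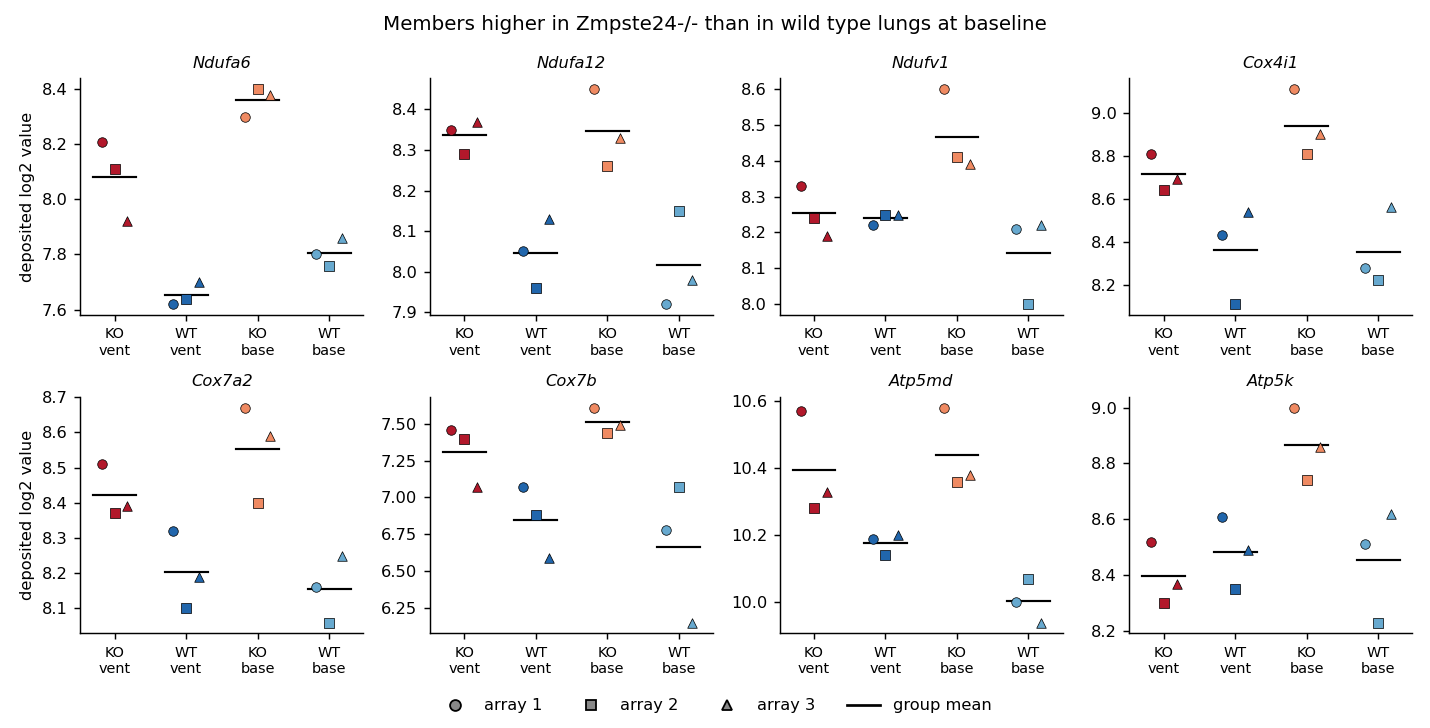
Deposited log2 value (y axis, separate range per gene) of the 8 members called higher in Zmpste24-/- than in wild type lungs at baseline, in the 4 groups (x axis: KO, Zmpste24-/-; WT, wild type; vent, ventilated; base, baseline). Points are single arrays, with a shape for each array number, and bars are group means. For each gene the 3 KO baseline points lie above the 3 WT baseline points.

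How many members were called at baseline depended on single arrays. Without Zmpste24-/- baseline array 1 there were 2, Ndufa6 and Ndufb11, beside 1.44% of all genes higher. Without array 3 of that group there were 3, beside 1.16%, and without wild type baseline array 1 or array 2 there were 3 and 4, beside 1.5% and 1.35%. Without Zmpste24-/- ventilated array 1 or array 2, which enter through the shared estimate of spread, there were 5, beside 2.06% and 1.87%. Other settings gave more calls: 12 with a filter at the median level and 11 after quantile normalization. Of all genes, 5.0% and 2.96% were higher under those settings. The median difference of the members stayed between 0.08 and 0.18 when each of the 12 arrays was left out in turn. Ndufa6 was the 1 gene of the 8 that stayed called in all 20 alternative fits, with adjusted p-values from 0.00136 to 0.0137.

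The mean deviation of the 83 members from their own 12-array means was taken for each array. It was 0.04, -0.05 and -0.06 in ventilated Zmpste24-/- lungs, 0.00, -0.07 and -0.08 in ventilated wild type lungs, 0.20, 0.03 and 0.09 in baseline Zmpste24-/- lungs and -0.06, -0.06 and 0.00 in baseline wild type lungs. All 3 Zmpste24-/- baseline arrays lay above all 3 wild type baseline arrays, and array 1 was the highest of the 12. The same mean over all genes stayed between -0.02 and 0.02. Within groups, the members' mean had a pooled standard deviation of 0.0586.

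**Figure D3:**
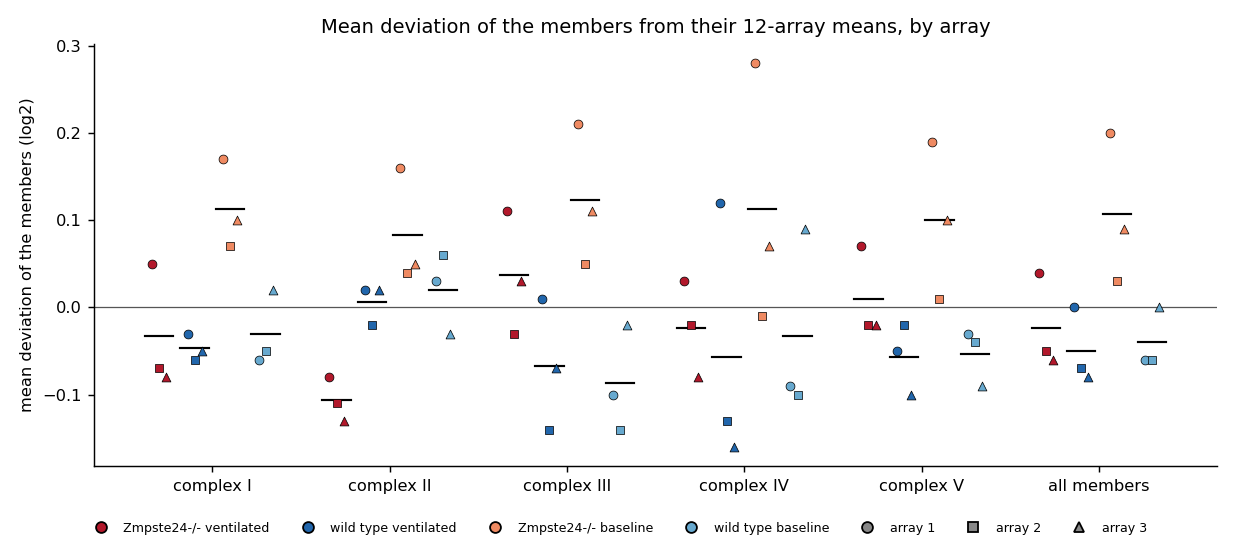
Mean deviation of the members of each complex from their 12-array means (y axis, log2), by complex and over all 83 members (x axis). Colours are the 4 groups, point shapes the array numbers and bars the group means. Zmpste24-/- baseline array 1 is the highest point in every complex, at 0.17 in complex I and 0.28 in complex IV.

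Zmpste24-/- baseline array 1 also held more muscle and fat RNA than the other arrays of its group. The mean level of 7 adipocyte markers was 6.92, 5.46 and 6.05 in Zmpste24-/- baseline arrays 1 to 3 and lay between 5.25 and 5.71 in baseline wild type lungs. Of those 7 markers, 0 were called in limma at baseline, but 5 were higher and 0 lower at an unadjusted p under 0.05, with a median difference of 0.75. Ucp1, which defines brown fat, read 4.77, 4.68 and 4.56 in baseline Zmpste24-/- lungs, under the array medians, against 4.73, 4.53 and 4.87 in baseline wild type lungs. Cidea, another brown fat marker, read 5.97, 5.01 and 5.03 in baseline Zmpste24-/- lungs, against 4.63, 4.51 and 4.97 in baseline wild type lungs, without overlap (0.63 ± 0.21, adjusted p = 0.0978). The 16 heart and skeletal muscle markers had mean levels of 7.41, 6.18 and 6.68 in baseline Zmpste24-/- lungs, against 6.84 to 7.43 in baseline wild type lungs, with 1 of 16 called higher, Acta1 at 0.43 ± 0.12 (adjusted p = 0.0475), and 0 lower. Their median difference was -0.54, and 1 was higher and 3 were lower at an unadjusted p under 0.05. Among other cells, 4 of 8 endothelial and 6 of 9 lymphocyte markers were lower in Zmpste24-/- lungs at baseline. So were 4 of 9 fibroblast and smooth muscle, 2 of 8 macrophage and monocyte, and 1 of 3 red cell and platelet markers. Of 8 neutrophil markers 1 was higher, and 5 were higher and 0 lower at an unadjusted p under 0.05. Of 7 airway markers 0 were called, but 3 were higher and 0 lower at that threshold, with a median difference of 0.23. Their mean level was 10.15, 9.77 and 10.00 in baseline Zmpste24-/- lungs, against 9.67, 9.55 and 9.93 in baseline wild type lungs. The part of these cells in the higher respiratory chain values was not tested. In whole lung, more cells rich in mitochondria and more RNA per cell cannot be told apart.

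The muscle isoforms of complex IV varied within groups more than any other member. Cox6a2, the muscle isoform of subunit 6a, read 8.31, 8.31 and 8.03 in ventilated Zmpste24-/- lungs, 9.17, 8.45 and 7.94 in ventilated wild type lungs, 8.73, 7.93 and 8.13 in baseline Zmpste24-/- lungs and 8.47, 8.21 and 8.77 in baseline wild type lungs. Cox7a1, that of subunit 7a, read 6.08, 6.14 and 5.86 in ventilated Zmpste24-/- lungs, 6.76, 5.79 and 5.93 in ventilated wild type lungs, 6.78, 5.54 and 5.82 in baseline Zmpste24-/- lungs and 6.26, 5.57 and 6.38 in baseline wild type lungs. Cox8b, that of subunit 8, read 4.98, 4.92 and 5.34 in ventilated Zmpste24-/- lungs, 5.89, 5.12 and 4.92 in ventilated wild type lungs, 6.31, 4.89 and 5.21 in baseline Zmpste24-/- lungs and 5.31, 4.99 and 5.70 in baseline wild type lungs. All 3 were highest, within their group, in wild type ventilated array 1 and Zmpste24-/- baseline array 1. None of the 3 was called in any comparison; their standard deviations within groups, 0.408 for Cox6a2, 0.476 for Cox7a1 and 0.5 for Cox8b, were the largest of the members.

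Transcripts of atrial heart muscle, which in mice lines the pulmonary veins, were highest in the same arrays of those 2 groups. Myh6, the alpha heavy chain of cardiac myosin, read 10.05, 8.53 and 7.99 in ventilated wild type lungs and 8.70, 5.56 and 7.14 in baseline Zmpste24-/- lungs. Nppa, the atrial natriuretic peptide, read 11.21, 7.96 and 6.93 in ventilated wild type lungs and 8.84, 6.11 and 6.33 in baseline Zmpste24-/- lungs. In baseline wild type lungs, where array 3 was highest for all 3 isoforms, Myh6 read 9.15, 8.11 and 8.46, highest in array 1. How much of the isoforms' spread goes with the amount of heart muscle in the sample was not tested.

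**Figure D4:**
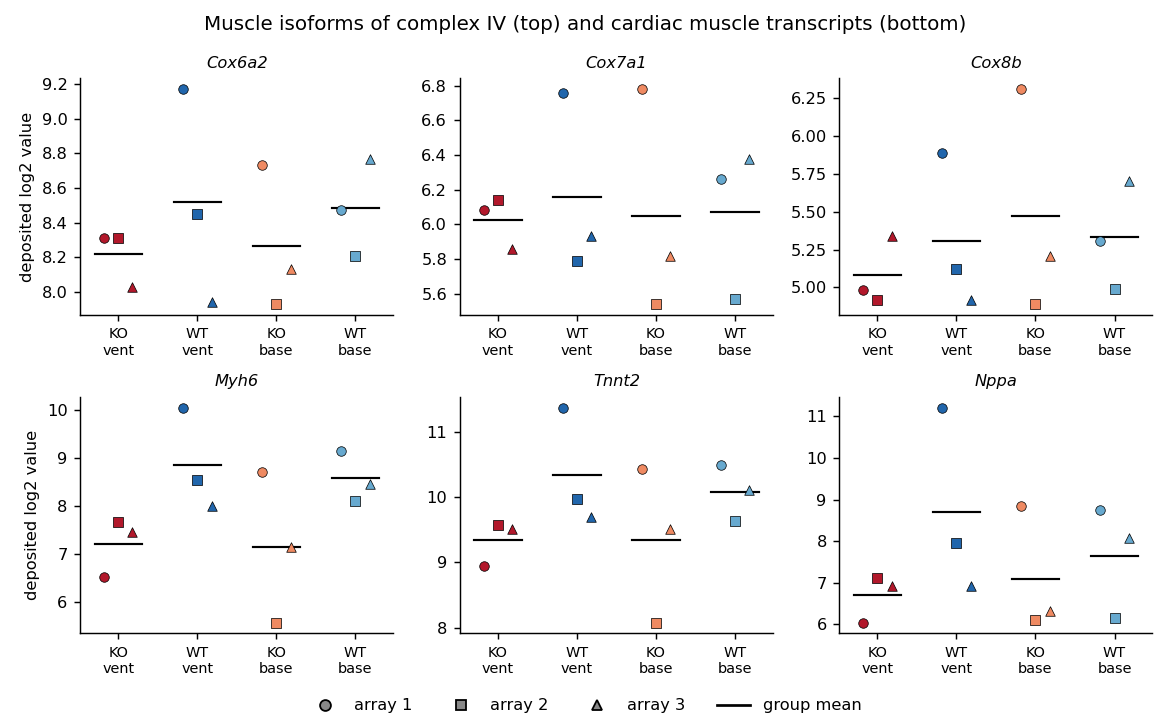
Deposited log2 values (y axis, separate range per gene) of the muscle isoforms Cox6a2, Cox7a1 and Cox8b (top) and of the heart muscle transcripts Myh6, Tnnt2 and Nppa (bottom) in the 4 groups (x axis). Points are single arrays, shaped by array number, and bars are group means. WT ventilated array 1 and KO baseline array 1 are the highest of their groups in all 6 panels.

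Under ventilation, the comparison of the genotypes gave 2 members higher and 2 lower in Zmpste24-/- than in wild type lungs. Both shares, 2.41%, were below the 4.72% higher and 6.08% lower of all genes, 10.8% in either direction. The median difference was 0.02, beside 0.01 over all genes, and 10 members were higher and 6 lower at an unadjusted p under 0.05, beside 11.5% and 13.3% of all genes. The arrays of both groups did not overlap for 16 members that were higher and 7 that were lower, beside 14.8% and 15.5% of all genes. Ndufa6 was again higher: it read 8.21, 8.11 and 7.92 in ventilated Zmpste24-/- lungs, against 7.62, 7.64 and 7.70 in ventilated wild type lungs. The groups stood apart, by 0.43 ± 0.08 or 1.34-fold (adjusted p = 0.00579), and the call held in all 20 alternative fits. Ndufa12 read 8.35, 8.29 and 8.37 in ventilated Zmpste24-/- lungs, against 8.05, 7.96 and 8.13 in ventilated wild type lungs, which is 0.29 ± 0.09 (adjusted p = 0.0484). That call was lost in 12 of 20 alternative fits, among them each fit without a ventilated array, Zmpste24-/- baseline array 2 or 3, or wild type baseline array 3. The last also called Cox7b and Ndufa7 higher, making 3. Beside this comparison, 7 of 8 neutrophil markers were higher, and 8 of 9 lymphocyte, 6 of 9 fibroblast and smooth muscle and 4 of 8 endothelial markers were lower, in ventilated Zmpste24-/- than in ventilated wild type lungs. In each of the last 2 lists 1 marker was higher, Tcf21 by 0.73 ± 0.11 among the fibroblast ones. In other lists, 2 of 8 alveolar type 2, 1 of 7 airway and 1 of 3 red cell and platelet markers were lower. Higher were 2 of 7 alveolar type 1 and 1 of 8 macrophage and monocyte markers. Of the 16 muscle markers 1 was lower, Actc1 at -1.62 ± 0.41 (adjusted p = 0.0216), their median was -0.85, and 5 were lower at an unadjusted p under 0.05. Their part in the result was not tested.

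Cox7c, a small complex IV subunit, was lower in ventilated Zmpste24-/- lungs. It read 5.56, 5.87 and 5.80 in ventilated Zmpste24-/- lungs, 6.30, 6.09 and 6.17 in ventilated wild type lungs, 5.87, 5.86 and 5.95 in baseline Zmpste24-/- lungs and 5.90, 5.88 and 5.92 in baseline wild type lungs. Both ventilated groups lay apart, by -0.45 ± 0.09 (adjusted p = 0.00716), and this call held in all 19 alternatives that gave it a value. The wild type ventilated arrays were the high ones: ventilated minus baseline was 0.29 ± 0.09 in wild type lungs (adjusted p = 0.0784) and -0.15 ± 0.09 in Zmpste24-/- lungs (adjusted p = 0.337). The test of the difference between those 2 effects gave -0.44 ± 0.13 with an adjusted p of 0.177. Sdhaf3, which helps the iron-sulfur subunit of complex II mature, read 5.05, 5.03 and 5.02 in ventilated Zmpste24-/- lungs, against 5.22, 5.61 and 5.57 in ventilated wild type lungs. It was lower by -0.43 ± 0.11 (adjusted p = 0.0278), at values under the array medians, and lost the call in 6 of 19 alternatives, among them those without Zmpste24-/- ventilated array 1, 2 or 3 or wild type ventilated array 2 or 3. Cox7c was then the 1 member lower.

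Other members with large baseline differences did not pass under ventilation. Cox4i1 read 8.81, 8.64 and 8.69 in ventilated Zmpste24-/- lungs, against 8.43, 8.11 and 8.54 in ventilated wild type lungs, which is 0.35 ± 0.12 (adjusted p = 0.0936). Atp5k read 8.52, 8.30 and 8.37 in ventilated Zmpste24-/- lungs, against 8.61, 8.35 and 8.49 in ventilated wild type lungs, with overlapping arrays (-0.09 ± 0.11). Ndufv1 read 8.33, 8.24 and 8.19 in ventilated Zmpste24-/- lungs, against 8.22, 8.25 and 8.25 in ventilated wild type lungs, also overlapping (0.02 ± 0.09). Cox7b, with the largest baseline difference, had the highest of complex IV here as well, 0.46 ± 0.19, and was not called. Its second probe gave -0.12 ± 0.14. Ndufa7, an accessory subunit, had the largest positive difference, 0.47 ± 0.17, with an adjusted p of 0.0919. Ndufs1 had the lowest in the core of complex I, -0.30 ± 0.10 (adjusted p = 0.0777). In ATP synthase, Atp5d, the delta subunit of the central stalk, differed by 0.30 ± 0.10 (adjusted p = 0.0773) and Atp5c1, the gamma subunit that turns in the head, by -0.16 ± 0.10 (adjusted p = 0.317). A second Atp5d probe differed by 0.97 ± 0.37 (adjusted p = 0.121). In complex III, Uqcrq, a small subunit next to cytochrome b, differed by 0.22 ± 0.10 (adjusted p = 0.207).

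In Zmpste24-/- lungs, ventilation went with 0 members higher and 6 lower by limma's adjusted p, and 2 higher and 21 lower at an unadjusted p under 0.05. The 7.23% called lower is close to the 7.52% of all genes, and the members had 0 calls where 8.89% of all genes were called higher, 16.4% being called in either direction. At the unadjusted threshold 13.6% of all genes were higher and 13.7% lower. The arrays did not overlap for 2 members that were higher and 27 that were lower, beside 16.6% and 16.8% of all genes. The median of the members was -0.15, beside -0.01 over all genes, and 69 of 83 lay below 0. Complex I had 3 of the calls, complex II 1 and complex V 2. The medians were -0.18 in complex I, -0.19 in complex II, -0.09 in complex III, -0.13 in complex IV and -0.12 in complex V. The highest differences of complexes I, IV and V were 0.34 for Ndufs5, 0.10 for Cox5a and 0.15 for Atp5j2, none of them called. Ndufs5 and Atp5j2 are among the members with means below the mean of the array medians.

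Sdhaf1, the LYR-motif factor that brings iron-sulfur clusters to Sdhb, read 6.40, 6.67 and 6.36 in ventilated Zmpste24-/- lungs, against 6.88, 6.85 and 6.87 in baseline Zmpste24-/- lungs. It fell by 0.39 on the log2 scale (SE 0.09, adjusted p = 0.0103). Its second probe disagrees, with -0.05 ± 0.11 here and 0.40 ± 0.11 (adjusted p = 0.0426) for the genotypes at baseline, where the first gave 0.24 ± 0.09 (adjusted p = 0.147). Atp5k read 8.52, 8.30 and 8.37 in ventilated Zmpste24-/- lungs, against 9.0, 8.74 and 8.86 in baseline Zmpste24-/- lungs, and was lower by -0.47 ± 0.11 (adjusted p = 0.0114). Neither gene's arrays overlapped. Atp5g2, 1 of the genes for the proton-carrying c ring, read 10.59, 10.42 and 10.38 in ventilated Zmpste24-/- lungs, against 10.84, 10.73 and 10.75 in baseline Zmpste24-/- lungs. It was lower by -0.31 ± 0.08 (adjusted p = 0.0204), and its second probe gave -0.30 ± 0.09 (adjusted p = 0.0284).

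The 3 complex I calls were accessory subunits. Ndufa13, also known as GRIM-19 for its part in interferon and retinoid induced cell death, read 8.29, 8.17 and 8.01 in ventilated Zmpste24-/- lungs, against 8.62, 8.44 and 8.54 in baseline Zmpste24-/- lungs (-0.38 ± 0.11, adjusted p = 0.0257). Ndufa9, at the joint between the arms of the complex, read 8.28, 8.04 and 8.27 in ventilated Zmpste24-/- lungs, against 8.74, 8.44 and 8.49 in baseline Zmpste24-/- lungs (-0.36 ± 0.10, adjusted p = 0.0317). Ndufa6 read 8.21, 8.11 and 7.92 in ventilated Zmpste24-/- lungs, against 8.30, 8.40 and 8.38 in baseline Zmpste24-/- lungs (-0.28 ± 0.08, adjusted p = 0.035). All 3 had the ventilated arrays below the baseline arrays. For Ndufa6 the ventilated knockout values still lay above both wild type groups. Among the other genes of the c ring and complexes II and III, Atp5g3 differed by 0.14 ± 0.09, Sdhaf2, which attaches the flavin to Sdha, by 0.01 ± 0.12 and Uqcrh, the hinge protein of complex III, by -0.13 ± 0.11. Without the 4 Sdhaf factors, 5 of 79 members were lower.

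These calls depended on single arrays as well. Without Zmpste24-/- ventilated array 2 there was 1, Sdhaf1; without array 3 of that group there was 1, Atp5k; and without Zmpste24-/- baseline array 3 there were 2, Atp5k and Sdhaf1. All genes called lower then made up 5.2%, 4.73% and 5.44%. Without Zmpste24-/- baseline array 1, the one with the most adipocyte RNA, 4 members were called lower, beside 5.18% of all genes. The median of the members stayed between -0.19 and -0.09 as each array was left out. After quantile normalization of the arrays, 14 of the 83 members were called lower, beside 8.41% of all genes, so the closeness to the share of all genes does not hold under that setting. With a filter at the 25th percentile 8 members were called lower, beside 10.6% of the genes kept. At the median level 9 were, beside 15.5%. This comparison uses the same 3 Zmpste24-/- baseline arrays as the genotype comparison at baseline, so the higher baseline values and the lower ventilated values of Atp5k and Ndufa6 are not independent. The same holds for all 83 members and for their medians of 0.12 and -0.15 in those comparisons. Of the markers, 8 of 8 for neutrophils were higher in ventilated than in baseline Zmpste24-/- lungs. Those for endothelium (7 of 8), airway epithelium (3 of 7) and lymphocytes (3 of 9) were lower. The airway markers had a median difference of -0.41. Also lower were 3 of 9 for fibroblasts and smooth muscle. For alveolar type 2 and type 1 cells, 2 of 8 and 1 of 7 were lower. Of the 7 adipocyte markers 1 was lower, and their median difference was -0.67. The mean neutrophil marker level was 8.89 to 9.09 in ventilated Zmpste24-/- lungs, against 6.78 to 7.64 in baseline Zmpste24-/- lungs, and its part in the lower respiratory chain values was not tested.

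In wild type lungs, ventilation went with 0 members higher and 1 lower, with 2 higher and 4 lower at an unadjusted p under 0.05 in limma. Of the members, 0 and 1.2% were called, against 3.67% higher and 3.53% lower over all genes, 7.2% in either direction. At the unadjusted threshold all genes gave 9.75% higher and 10.7% lower. The arrays did not overlap for 4 members that were higher and 6 that were lower, beside 10.8% and 11.8% of all genes. The median of the members was -0.02, beside -0.01. The called gene was Ndufa4l2, the hypoxia-induced paralog of Ndufa4, known as a target of the factor HIF-1 and for lowering complex I activity. It read 7.0, 7.14 and 6.85 in ventilated Zmpste24-/- lungs, 7.35, 6.98 and 7.13 in ventilated wild type lungs, 7.31, 7.63 and 7.34 in baseline Zmpste24-/- lungs and 7.64, 7.60 and 8.10 in baseline wild type lungs. In both genotypes the ventilated arrays lay below the baseline arrays. The difference was -0.62 ± 0.14 or 1.54-fold lower in wild type lungs (adjusted p = 0.018) and -0.43 ± 0.14 in Zmpste24-/- lungs (adjusted p = 0.057). Wild type baseline array 3 was the highest, and without it the wild type difference was -0.46 (adjusted p = 0.0616). Without wild type ventilated array 2 or array 3 it was -0.54 and -0.61 (adjusted p = 0.0668 and 0.0671).

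Cox4i2 had a similar order of groups without passing the test. It read 7.39, 7.42 and 7.32 in ventilated Zmpste24-/- lungs, 7.47, 7.34 and 7.31 in ventilated wild type lungs, 7.44, 7.83 and 7.71 in baseline Zmpste24-/- lungs and 7.56, 7.68 and 7.88 in baseline wild type lungs. Ventilated minus baseline was -0.33 ± 0.11 in wild type lungs (adjusted p = 0.0863) and -0.28 ± 0.11 in Zmpste24-/- lungs (adjusted p = 0.103). No ventilated array of either genotype was above a baseline array of the same genotype. Without Zmpste24-/- baseline array 1, Cox4i2 was called lower with ventilation in Zmpste24-/- lungs. The common isoform Cox4i1 differed by 0.00 ± 0.12 in wild type and by -0.23 ± 0.12 in Zmpste24-/- lungs (adjusted p = 0.992 and 0.269). Ndufab1, the acyl carrier protein of complex I, leaned the other way, at 0.26 ± 0.08 in wild type (adjusted p = 0.0715) and 0.18 ± 0.08 in Zmpste24-/- lungs (adjusted p = 0.158). Among the markers, 7 of 8 for endothelium were lower and 5 of 8 for neutrophils higher in ventilated wild type than in baseline wild type lungs. Also lower were 2 of 9 for fibroblasts and smooth muscle, 1 of 8 for alveolar type 2 and 1 of 7 for type 1 cells. Of 8 macrophage and monocyte and 9 lymphocyte markers, 1 each was lower, and 1 of 16 muscle markers was higher.

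**Figure D5:**
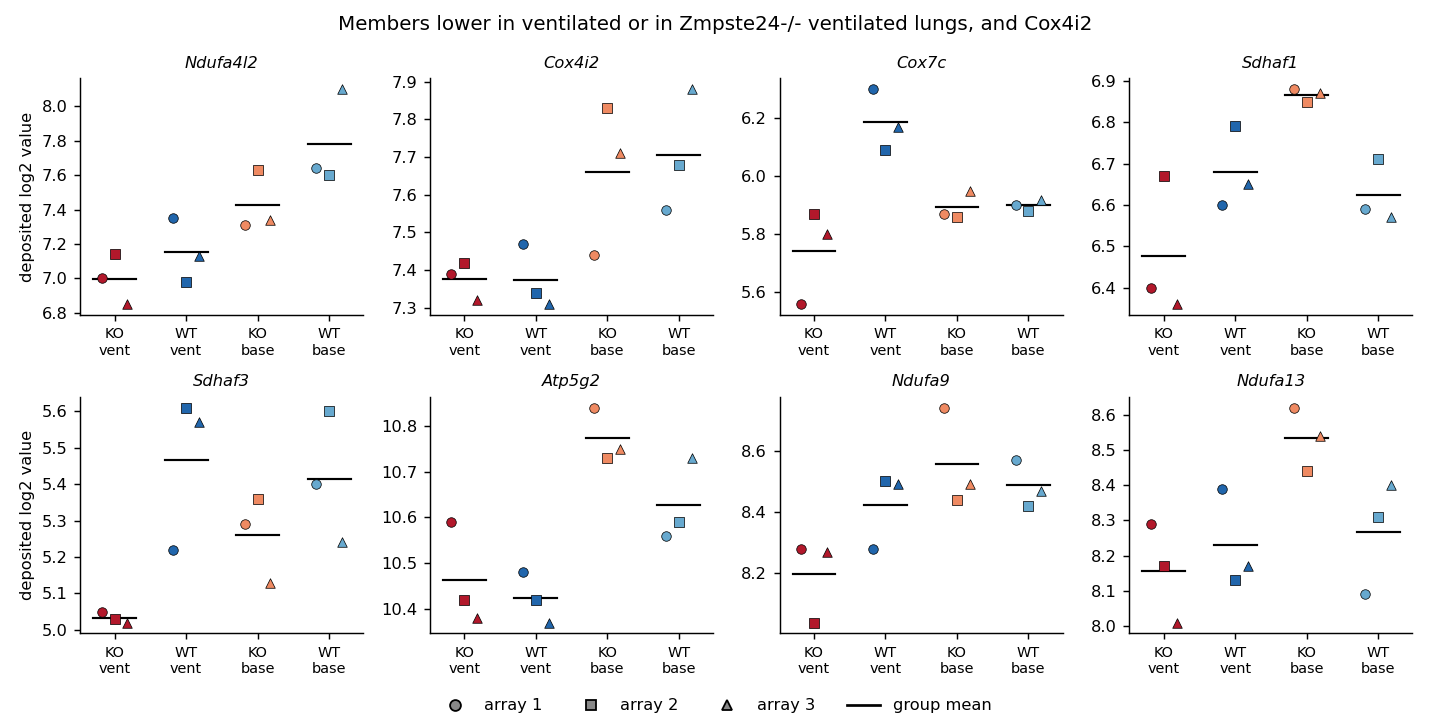
Deposited log2 value (y axis, separate range per gene) of 7 members called lower in ventilated lungs or in ventilated Zmpste24-/- lungs, and of Cox4i2, which was not called, in the 4 groups (x axis). Points are single arrays, shaped by array number, and bars are group means. For Ndufa4l2 the ventilated points of each genotype lie below its baseline points, and for Cox7c the 3 WT ventilated points are the highest.

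Whether ventilation acted differently in the genotypes was tested by the interaction. In limma, 0 members passed in either direction, and at an unadjusted p under 0.05 there were 0 higher and 6 lower. Over all genes, 0.266% were called higher and 0.0496% lower, 0.316% in all, and 6.51% and 5.2% passed the unadjusted threshold. The median of the members was -0.11, beside 0.01 over all genes, and 65 of 83 lay below 0. The lowest adjusted p was 0.175, for Sdhaf1 at -0.45 ± 0.13, followed by 0.177 for Cox7c and 0.21 for Atp5k at -0.51 ± 0.16.

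Of the testis isoforms, Cox7b2 and Cox8c lay under the array medians and Cox6b2 above them. Cox7b2 read between 3.00 and 3.43 in the 12 arrays and Cox8c between 3.74 and 4.12, and neither was called in any comparison. Cox6b2 read between 5.87 and 6.84, with its highest value in wild type baseline array 3. Cox7a2l, which joins complexes III and IV into supercomplexes, differed by at most 0.17 in size in any of the 4 comparisons and was not called.

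Chain subunits encoded in mitochondrial DNA were measured by 10 genes of a list. In limma, 0 of the 10 were called in either genotype comparison or in wild type ventilation. At an unadjusted p under 0.05 this was 0 in both genotype comparisons and 2, both lower, in wild type ventilation. In Zmpste24-/- lungs, 1 was called lower with ventilation, ND3 of complex I, at -0.30 ± 0.07 (adjusted p = 0.0119). Their medians were -0.07 for ventilation in Zmpste24-/- lungs, -0.08 in wild type lungs and 0.07 for the genotype in either condition. Of 7 electron carriers and chain proteins outside the symbol rule, 1 was called higher and 2 lower with ventilation in Zmpste24-/- lungs, and 0 in wild type lungs, where 1 was higher at an unadjusted p under 0.05. Of all genes, 8.89% were called higher and 7.52% lower with ventilation in Zmpste24-/- lungs, and 3.67% and 3.53% in wild type lungs. Cycs, cytochrome c, was higher by 0.49 ± 0.12 (adjusted p = 0.00994). Atpif1, the inhibitor of ATP synthase run in reverse, was lower by -0.35 ± 0.09 (adjusted p = 0.0141), and Etfb, an electron transfer flavoprotein subunit, by -0.42 ± 0.12 (adjusted p = 0.0273). Cycs and Atpif1 also separated the genotypes under ventilation, at 0.42 ± 0.12 and -0.35 ± 0.09 (adjusted p = 0.0341 and 0.0214).

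Of 42 assembly factors of the complexes, 4 were higher and 3 lower with ventilation in Zmpste24-/- lungs, shares near the 8.89% and 7.52% of all genes. There were 2 higher and 0 lower in wild type lungs, 1 and 1 between genotypes under ventilation, and 0 and 1 at baseline. The shares of all genes higher and lower in those comparisons were 3.67% and 3.53%, 4.72% and 6.08%, and 2.2% and 4.11%. Ndufaf4, a complex I factor, was higher with ventilation in Zmpste24-/- lungs by 0.38 ± 0.08 (adjusted p = 0.00642) and in wild type lungs by 0.37 ± 0.08 (adjusted p = 0.0159). Ttc19, which clears fragments of the Rieske protein from complex III, was higher by 0.45 ± 0.12 and 0.59 ± 0.12 in the same comparisons (adjusted p = 0.0199 and 0.00965). Cox16, a factor for complex IV, was lower in Zmpste24-/- than in wild type lungs, by -0.70 ± 0.10 under ventilation (adjusted p = 0.000845) and by -0.53 ± 0.10 at baseline (adjusted p = 0.00722). Coa4, another complex IV factor, was lower with ventilation in Zmpste24-/- lungs, by -0.57 ± 0.12 (adjusted p = 0.00411).

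Promoter sequences from RefSeq (GRCm38.p6) show what the members share in sequence. Windows from 250 bases before to 50 after the start were at hand for 69 of the 83 genes, in 74 windows, beside 32851 windows of all genes, of which 21262 belong to protein-coding ones. Letters were searched on both strands, and a match is a description of letters, not of binding. The motif of NRF1 (nuclear respiratory factor 1), GCGCANGCGC, was in 24.3% of the members' windows, 4.6% of all windows and 6.38% of protein-coding ones. The ETS core CCGGAAG, read by the factor GABP, was in 27.0% of the members' windows, 8.86% of all and 11.6% of protein-coding ones. The CRE core TGACG was in 39.2%, against 20.8% and 23.6%, and the YY1 core AAGATGG in 13.5%, against 6.34% and 6.24%. Sp1's GGGCGG was in 44.6% of the members' windows, 35.7% of all and 46.2% of protein-coding ones, and the ERR core AAGGTCA in 8.11%, 4.72% and 4.08%.

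Of the called members with a window, 3 held an NRF1 or ETS match within the 150 bases before the start: Atp5k (chr5:108434400-108434549, minus strand), Atp5g2 (chr15:102671048-102671197, minus strand) and Sdhaf3 (chr6:6955868-6956017, plus strand). They are printed 5′ to 3′ in the direction of the gene, ending at the base before the start, with the match in capitals. In Atp5k and Atp5g2 the capitals mark an NRF1 motif that reads alike on both strands and begins 50 and 42 bases before the start. In Sdhaf3 they mark an ETS core that begins 127 bases before it. The full windows searched above reach further on both sides and held more matches. In them, Ndufa6 also had an NRF1 match, and Atp5md and Sdhaf1 had an ETS match. Sdhaf3 had an NRF1 match there as well, and Atp5k an ETS match. The full windows of Cox7a2, Cox7b, Cox7c, Ndufa9, Ndufa12, Ndufa13 and Ndufv1 held neither motif.
Atp5k: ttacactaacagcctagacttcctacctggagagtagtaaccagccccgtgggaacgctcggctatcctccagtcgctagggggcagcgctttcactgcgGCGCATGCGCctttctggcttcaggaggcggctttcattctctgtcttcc
Atp5g2: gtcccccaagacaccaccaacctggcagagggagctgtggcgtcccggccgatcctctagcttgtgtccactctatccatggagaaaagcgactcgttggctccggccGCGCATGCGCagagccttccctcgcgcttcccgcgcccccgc
Sdhaf3: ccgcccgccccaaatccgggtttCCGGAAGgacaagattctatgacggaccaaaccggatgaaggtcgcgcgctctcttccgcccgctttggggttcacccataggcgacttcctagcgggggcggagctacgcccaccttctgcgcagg
Atp5k was higher in Zmpste24-/- lungs at baseline and lower with ventilation in them, Atp5g2 was lower with ventilation in Zmpste24-/- lungs, and Sdhaf3 was lower in ventilated Zmpste24-/- than in ventilated wild type lungs.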

How the data were processed

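Total RNA from whole lung (100 ng, Trizol) was labelled with the WT Plus kit, per the labels' protocols. The authors deposited log2 intensities per probe for 12 arrays, and the submitters' processing notes name RMA and limma. No genome build for the probes was found in the labels or the file header. Of 41345 probes, 23521 were paired with 1 symbol, 1814 with several and 16010 with none. For each of 22180 genes the probe with the highest mean was kept, with no filter on dim probes.

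A mean per group was fitted over all 12 arrays with limma 3.58.1 (lmFit, eBayes; R 4.3.3), giving 4 pairwise differences and the interaction, with Benjamini-Hochberg adjustment over all genes and a threshold of 0.05. The fit had 8 residual and 5.51 prior degrees of freedom. The labels call the arrays biological replicates and tie no array number to a shared day or litter. The smallest p that exact permutation of 3 against 3 arrays allows is 0.1, so p-values come from limma alone. The precision is limited by the number of arrays. The procedure was tested on simulated data.

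Named members were the up to 8 with the smallest adjusted p in each pairwise comparison, the member with the largest positive and negative difference in each complex, tissue-restricted isoforms, and core subunits. Not every difference of these members is printed. Up to 4 called genes per pathway list were named. Atp5e, Atp5h, Cox6b1, Ndufb10, Ndufb11 and Ndufs8 were added after their values were seen. The members and all gene lists were chosen with earlier results of these data known. Alternatives were 8 other settings and 12 fits without 1 array each. Promoters were searched in Python 3.11.15 with pandas 2.3.3, and plots drawn with matplotlib 3.10.9.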

Additional observations from a re-analysis of the deposited data

How the results depend on the processing

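With each of the 12 arrays left out in turn, members called higher in Zmpste24-/- than in wild type lungs at baseline numbered 2 to 9, and lower ones 0 to 0. All genes gave 1.16% to 2.39% higher and 1.75% to 4.3% lower there. Under ventilation the members numbered 1 to 3 higher and 1 to 2 lower, beside 2.83% to 4.93% and 3.31% to 6.84% of all genes. Ventilation in Zmpste24-/- lungs gave 0 to 0 higher and 1 to 8 lower, beside 6.24% to 9.08% and 4.73% to 7.93%. In wild type lungs it gave 0 to 1 higher and 0 to 1 lower, beside 1.76% to 3.73% and 1.84% to 3.48%. The interaction gave 0 members throughout these fits. Quantile normalization gave 14 members lower with ventilation in Zmpste24-/- lungs, beside 8.41% of all genes. Fitting only the groups compared gave 5 higher at baseline and 0 lower with ventilation in wild type lungs, beside 1.42% and 1.93% of all genes. That setting has no value for the interaction. A filter at the median level gave 1 higher with ventilation in wild type lungs, beside 7.49% of all genes. It gave 0 lower between the genotypes under ventilation, beside 11.6%. In that last comparison, 1 was lower with the array median subtracted, beside 4.39%, and 1 without the Sdhaf factors, beside 6.08%. With the mean of all probes 1 was higher, beside 4.76%. The causes were not tested. Same-numbered arrays correlated at -0.152 to 0.153 with a median of 0.038, and 2 of 18 pairs exceeded 0.1. The 36 other pairs lay between -0.245 and 0.234, with a median of 0.0035. The labels give no pairing, and such correlations cannot show whether arrays shared a day or litter. With the replicate number as a block, 7 members were higher at baseline, beside 2.16% of all genes. Between the genotypes under ventilation, 1 was higher and 2 were lower, beside 4.51% and 5.93%. With ventilation, 5 were lower in Zmpste24-/- lungs and 1 in wild type lungs, beside 7.22% and 3.27%. The interaction gave 0 members with that block. Over all genes, 488 were higher and 911 lower at baseline, against 657 and 776 after quantile normalization, and 1046 higher and 1349 lower under ventilation, against 1528 and 973 with the array median subtracted. No difference of a named member changed sign while called. Members below the array medians are read close to background.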

Other observations

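Other mitochondrial genes outside the chain had these values; the comparisons share arrays. Of 14 mitochondrial chaperones and proteases, 5 were higher and 1 lower with ventilation in Zmpste24-/- lungs, and 1 was higher in wild type lungs. Of all genes, 8.89% were higher and 7.52% lower with ventilation in Zmpste24-/- lungs, and 3.67% were higher in wild type lungs. The chaperonin subunits Hspd1 and Hspe1 were higher in ventilated than in baseline Zmpste24-/- lungs, by 1.28 ± 0.16 and 0.82 ± 0.14 (SE, limma adjusted p = 0.000135 and 0.00104). Both were also higher in ventilated Zmpste24-/- than in ventilated wild type lungs, by 0.93 ± 0.16 and 1.18 ± 0.14 (adjusted p = 0.00281 and 0.00025). Hspe1 was already higher in Zmpste24-/- than in wild type lungs at baseline, by 0.50 ± 0.14 (adjusted p = 0.0456). Hspa9 was higher with ventilation in both genotypes, by 0.72 ± 0.10 in Zmpste24-/- and 0.54 ± 0.10 in wild type lungs (adjusted p = 0.000198 and 0.00408). Of 15 regulators of mitochondrial biogenesis and mitochondrial DNA, 4 were higher with ventilation in Zmpste24-/- lungs and 2 in wild type lungs. The shares of all genes called higher there were 8.89% and 3.67%. In limma 0 were lower in either, against 2 in each at an unadjusted p under 0.05. Pprc1, a coactivator related to PGC-1alpha, was higher by 1.16 ± 0.15 in Zmpste24-/- lungs and by 0.73 ± 0.15 in wild type lungs (adjusted p = 0.000156 and 0.00977). Ppargc1a, which encodes PGC-1alpha, was higher with ventilation in wild type lungs, by 0.76 ± 0.14 (adjusted p = 0.0049).

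Of 19 import proteins, Timm23, the channel of the inner membrane, was higher with ventilation by 0.38 ± 0.08 in Zmpste24-/- and by 0.36 ± 0.08 in wild type lungs (adjusted p = 0.00359 and 0.0122). Of 9 mitophagy, fission and fusion genes, Bnip3, a hypoxia-induced mitophagy receptor, was higher with ventilation by 0.32 ± 0.10 in Zmpste24-/- and by 0.57 ± 0.10 in wild type lungs (adjusted p = 0.0368 and 0.00329), and higher in baseline Zmpste24-/- than in baseline wild type lungs by 0.48 ± 0.10 (adjusted p = 0.0114). Of 16 genes of the tricarboxylic acid cycle and pyruvate dehydrogenase, Fh1, fumarate hydratase, was higher and Idh3g lower with ventilation in Zmpste24-/- lungs, by 0.58 ± 0.10 and -0.30 ± 0.09 (adjusted p = 0.00137 and 0.0304). Of 71 mitochondrial ribosomal proteins, 4 were higher and 3 lower with ventilation in Zmpste24-/- lungs, where 8.89% and 7.52% of all genes were, and 3 were higher and 1 lower in Zmpste24-/- than in wild type lungs at baseline, where 2.2% and 4.11% of all genes were.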
